A study of Mus musculus with 8 samples.

Results

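Oxytocin and vasopressin are closely related neuropeptides made mainly by neurons of the paraventricular and supraoptic nuclei of the hypothalamus. Each is cut from a larger precursor, stored in secretory granules and released into the blood from the posterior pituitary or within the brain. Oxytocin acts on a single G protein-coupled receptor, and vasopressin acts on a family of related receptors that differ in tissue and in signalling route. The genes described here are the precursor genes Oxt and Avp, the receptor genes Oxtr, Avpr1a, Avpr1b and Avpr2, and 3 genes tied to the neurons that make the peptides, Magel2, Sim1 and Otp. They were chosen by gene symbol, as 9 of the 19505 genes named on the array, and each was represented by 1 of the 22206 rows. The rule itself used no measured difference between groups, but the 9 genes were chosen with earlier results of these data known.

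RNA came from brains of male ICR mice, an outbred strain, and was read on Clariom S arrays. The mice were bought at 8 weeks of age and treated for 7 days. The stressor was the tail suspension test (TST), which hangs the animal by the tail. The 4 groups had 2 arrays each: water with TST, rosemary extract (RE) at the low dose of 10 mg/kg with TST, RE at the high dose with TST, and water without TST. The labels give the high dose as 100 mg/kg in the titles and as 50 mg/kg in another field. RE was given by mouth, dissolved in drinking water. The labels assign 7 mice to each group and do not say whether an array holds 1 mouse or a pool. The p-values therefore measure only the spread between these RNA samples, which may be technical. Groups here follow the titles, although the agent field terms unsuspended water mice a positive control and suspended water mice a negative one. The tissue is labelled both limbic system and hippocampus. Neither is the main site of oxytocin or vasopressin synthesis.

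Values are the authors' log2 expression values after the robust multichip average (RMA), and a difference of 1 is a doubling on that scale. They reached 19.79, and 1359 of them exceeded 16, the limit of a 16-bit scanner, so the scale may be stretched and differences are those of the values as deposited. Array medians lay between 7.45 and 7.51, and having 2 arrays in each group limits the precision. No call of detection comes with the values. A row's level also depends on its probes, so levels are compared between arrays for 1 gene and not between genes.

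Oxt and Avp are neighbouring genes on mouse chromosome 2 and lie on opposite strands. Their upstream windows are shown because both genes were highest on the same pair of arrays, as described below. Each run holds the 250 bases before the annotated start in the RefSeq table of build GRCm38.p6, 5′ to 3′ on the gene's strand. Oxt lies on the plus strand with its window at chr2:130575919-130576168, and Avp on the minus strand with its window at chr2:130582589-130582838. Capitals mark TGACC on either strand (GGTCA on the other), the core bound by nuclear receptors, and CATAAA on the gene's strand, a variant of the TATA box.
Oxt: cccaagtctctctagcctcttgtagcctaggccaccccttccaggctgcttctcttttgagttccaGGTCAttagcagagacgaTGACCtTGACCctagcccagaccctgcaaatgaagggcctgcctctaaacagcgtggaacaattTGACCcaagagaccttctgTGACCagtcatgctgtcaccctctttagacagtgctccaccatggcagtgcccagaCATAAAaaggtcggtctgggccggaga
Avp: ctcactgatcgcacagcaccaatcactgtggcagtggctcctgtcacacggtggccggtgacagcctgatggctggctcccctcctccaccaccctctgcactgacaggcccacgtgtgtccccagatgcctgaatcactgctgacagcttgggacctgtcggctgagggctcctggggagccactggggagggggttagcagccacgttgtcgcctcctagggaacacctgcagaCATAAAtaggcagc
The Oxt window held 5 matches to TGACC, the first beginning at -184 and the last at -83 from the start, and the Avp window held 0. Of the 32851 windows of this length in the table, 35.2% held at least 1 match on either strand and 14 windows (0.0426%) held 5 or more. CATAAA, a motif chosen after the sequences were seen, began at -27 in Oxt and at -14 in Avp, and 5.98% of all windows held it on the gene's strand. TACGTG, the core bound by the SIM1 and ARNT2 proteins together, was in neither window on either strand and in 2.72% of all windows. A match is a match of letters only. Of the 9 genes, 8 had a window in the table.

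The tissue content of the arrays differed within the water groups. Cerebellar neuron markers stood high on water with TST replicate 2, where the mean of 11 measured markers lay 4.62 above its 8-array mean, and on water without TST replicate 1, at 2.66. The remaining 6 arrays ranged from -1.57 to -0.494. Markers of forebrain excitatory neurons, of which 0 of 9 lay below the median of all rows, had their lowest mean on water with TST replicate 2, at -1.77. It was at -0.306 or above on the other 7. Of the 9, 2 went the other way, as Prox1 (11.24) and Neurod2 (9.38) were highest on water with TST replicate 2. Across all rows, water with TST replicate 2 correlated with the other arrays at r between 0.967 and 0.978, against 0.983 to 0.993 among the other 7. Hypothalamic markers, a list of 22 measured genes that holds none of the 9, lay -0.154 and -0.0822 from the 8-array mean in water with TST, -0.195 and 0.0742 in low-dose RE, 0.152 and -0.0953 in high-dose RE, and -0.237 and 0.537 in water without TST. By this mean, water without TST replicate 2 was the array with the most hypothalamic signal. Of the 22 markers, 9 were highest on it, as were 10.3% of all rows. On water with TST replicate 2, 6 of the 22 (27.3%) were highest, near the 23% of all rows. Of the 22 markers, 20 lay below the median of all rows and 7 in the dimmest 25% of rows, Nkx2-1 and Foxb1 among them. Striatal neuron markers were also highest on water without TST replicate 2, at 1.88 above the 8-array mean, with the next array at 0.284. The hypothalamic hormone gene Pmch, which encodes melanin-concentrating hormone of the lateral hypothalamus, was at 8.92 and 6.93 in water with TST, 8.47 and 8.70 in low-dose RE, 10.32 and 9.78 in high-dose RE and 6.80 and 11.81 in water without TST. The 2 arrays of water without TST were the lowest and the highest of all 8 for Pmch. In brain tissue, fewer cells of a type and less RNA per cell cannot be told apart.

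**Figure D1:**
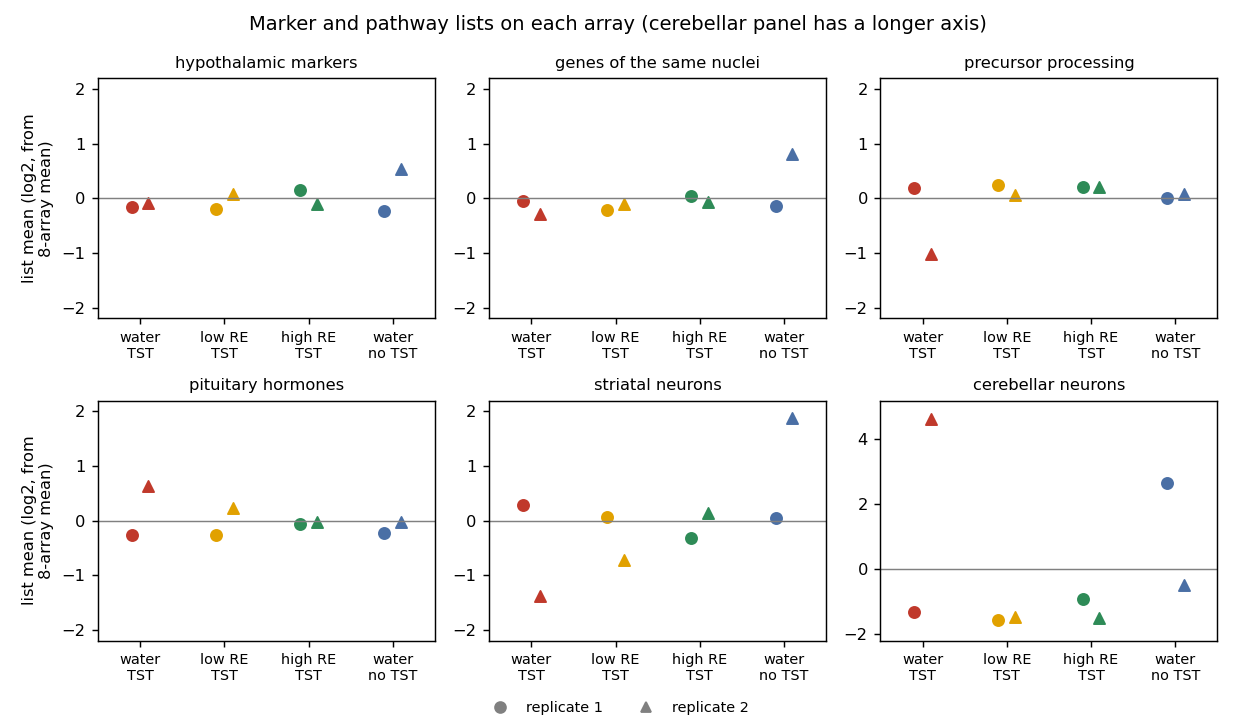
Mean of each gene list on every array, in log2 units from the list's own 8-array mean, for hypothalamic markers, genes of the same hypothalamic nuclei, precursor-processing genes, pituitary hormones, striatal and cerebellar neuron markers. Circles are replicate 1 and triangles replicate 2, and the cerebellar panel has a longer axis. Water without TST replicate 2 is the highest array for hypothalamic (0.537) and striatal (1.88) markers, and water with TST replicate 2 the highest for cerebellar markers (4.62).

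Neither peptide gene passed the test in any of the 4 comparisons, before or after adjustment. Oxt was at 6.49 and 7.27 in water with TST, 6.27 and 6.50 in low-dose RE, 6.74 and 6.24 in high-dose RE, and 6.55 and 7.70 in water without TST. Its highest values were those of replicate 2 in each water group, and the other 6 arrays lay between 6.24 and 6.74. Avp was at 5.97 and 7.88 in water with TST, 6.47 and 6.46 in low-dose RE, 6.09 and 5.95 in high-dose RE, and 5.63 and 8.60 in water without TST. The same pair of arrays was highest, and the other array of water without TST was the lowest of all 8. The arrays of water without TST thus differed by 2.97 for Avp, a gap exceeded by 0.0946% of all rows in that group. Those of water with TST differed by 1.91, exceeded by 2.80% of rows. In the RE groups the Avp gap was 0.01 at the low dose and 0.14 at the high dose, which 97.5% and 65.0% of rows exceeded. The residual standard deviation of Avp in the fit was 1.25, larger than that of 99.3% of rows, and that of Oxt was 0.528, at the 88.2nd percentile.

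The group means of Avp stood, from high to low, at 7.12 ± 2.10 in water without TST, 6.93 ± 1.35 in water with TST, 6.47 ± 0.00707 in low-dose RE and 6.02 ± 0.0990 in high-dose RE (SD, n = 2 each). The range of water without TST enclosed all 4 RE arrays, and that of water with TST enclosed 3 of them, with high-dose RE replicate 2 just below it. The low-dose and high-dose ranges did not overlap, with a difference of -0.45 between high and low dose (SE 0.892, adjusted p = 1.00 by limma). For Oxt the order was 7.13 ± 0.813 in water without TST, 6.88 ± 0.552 in water with TST, 6.49 ± 0.354 in high-dose RE and 6.39 ± 0.163 in low-dose RE (SD, n = 2 each). Each neighbouring pair in that order overlapped.

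Oxtr, the oxytocin receptor gene, which is known in the hippocampus, cortex and amygdala, was at 8.67 and 7.98 in water with TST, 8.77 and 9.26 in low-dose RE, 8.63 and 8.52 in high-dose RE, and 8.54 and 9.47 in water without TST. Its lowest value was on water with TST replicate 2, the array high in cerebellar markers, and its highest on water without TST replicate 2. Both low-dose arrays lay above both arrays of water with TST, with a difference of 0.69 (SE 0.373, adjusted p = 0.946 by limma). With the cerebellar marker mean as a covariate that difference was 0.207. The means ran from 9.02 ± 0.346 in low-dose RE and 9.01 ± 0.658 in water without TST to 8.58 ± 0.0778 in high-dose RE and 8.33 ± 0.488 in water with TST (SD, n = 2 each). Low-dose RE and high-dose RE did not overlap, and the difference of -0.44 between high and low dose (SE 0.373) had an adjusted p of 1.00 by limma. Oxtr was the only gene of the 9 whose 8-array mean lay above the median of all rows.

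The vasopressin receptor genes lay in the dimmest 25% of rows, where small differences are hard to separate from background. Avpr1a, the receptor of vasopressin in much of the forebrain, was at 4.18 and 4.68 in water with TST, 4.64 and 5.39 in low-dose RE, 5.31 and 4.32 in high-dose RE, and 4.58 and 5.01 in water without TST. All 4 groups overlapped, and the pair of high-dose arrays differed by 0.99, more than the difference between any 2 group means. Avpr2, the receptor of the kidney collecting duct, was at 5.07 and 5.19 in water with TST, 5.18 and 5.71 in low-dose RE, 4.80 and 5.21 in high-dose RE, and 5.22 and 4.87 in water without TST. Its groups overlapped as well.

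Avpr1b, the receptor of pituitary corticotrophs and of hippocampal field CA2, was the single gene of the 9 past the study's threshold in any comparison. That threshold, from the study's design text, asks for a linear fold over 1.2, which is 0.263 in log2 units, together with p under 0.05 before adjustment. Avpr1b was at 4.76 and 5.24 in water with TST, 4.52 and 5.02 in low-dose RE, 5.65 and 5.31 in high-dose RE, and 5.09 and 4.87 in water without TST. Both high-dose arrays were the highest of the 8. High-dose RE averaged 5.48 ± 0.240 and low-dose RE 4.77 ± 0.354 (SD, n = 2 each), a difference of 0.71 (SE 0.287, 95% interval 0.0525 to 1.37). The limma fit gave an unadjusted p = 0.0374 and an adjusted p = 1.00 over all rows. Against water with TST, the high-dose difference was 0.48 (SE 0.287, unadjusted p = 0.132). The high-minus-low difference was 0.46 without low-dose RE replicate 1 and 0.54 without high-dose RE replicate 1, with unadjusted p = 0.200 and 0.190. It was also no longer past the threshold without either array of water without TST (0.71, unadjusted p = 0.0541), with the hypothalamic marker mean as a covariate (0.70, unadjusted p = 0.0601) or by the methods' one-way analysis of variance (unadjusted p = 0.143). Of 5 measured CA2 markers, 2 were higher and 3 lower at the high than at the low dose, with a median of -0.05.

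**Figure D2:**
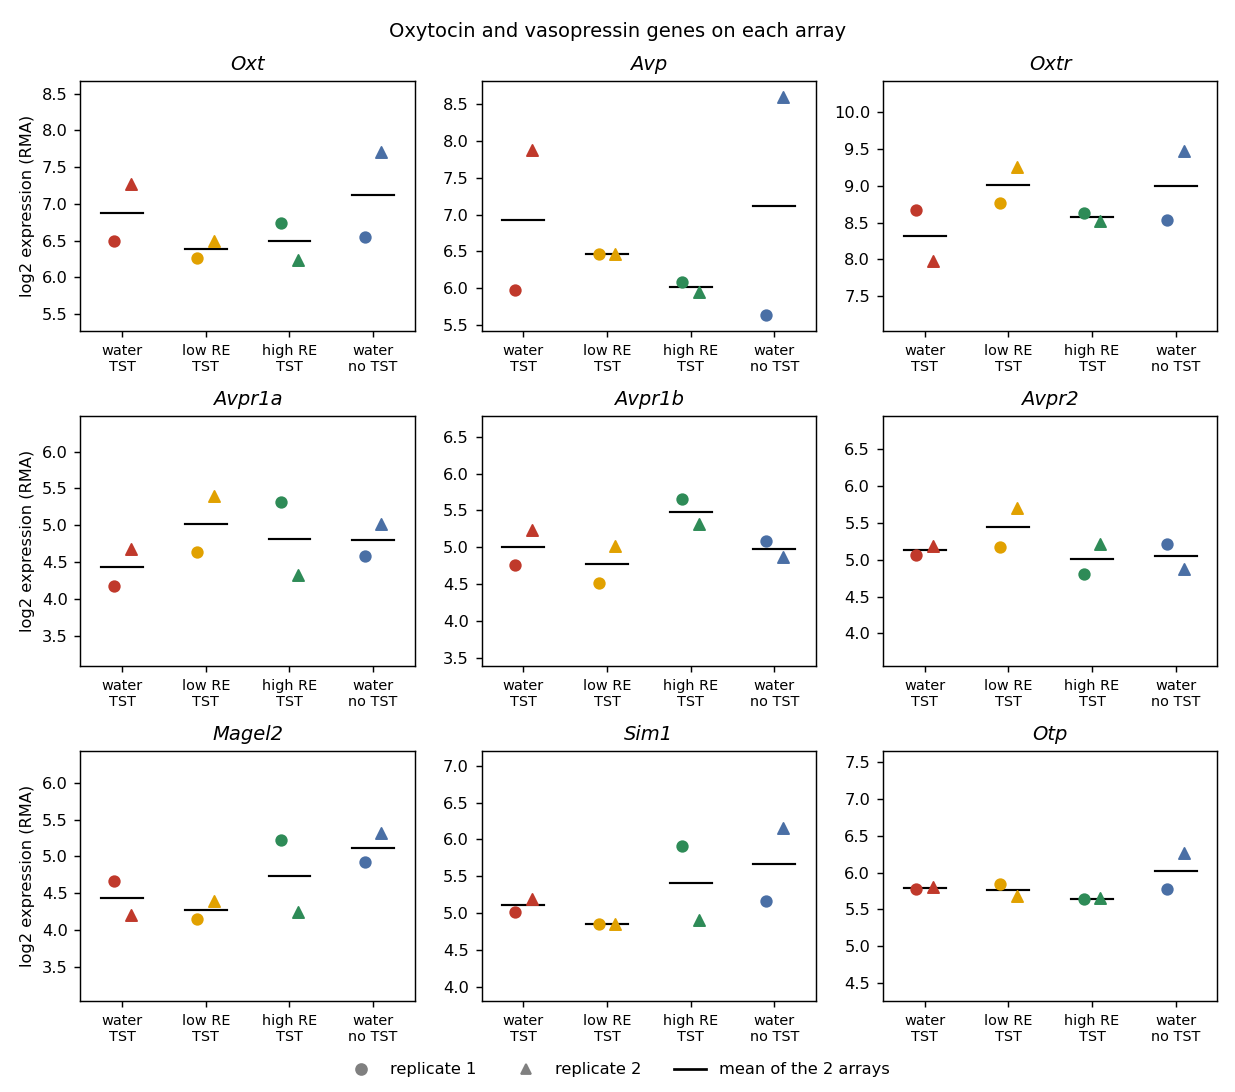
Log2 expression of the 9 genes on each of the 8 arrays, by group; circles are replicate 1, triangles replicate 2 and bars the mean of the 2 arrays, and every panel spans the same number of log2 units. Avp spreads from 5.63 to 8.60 within water without TST and by 0.01 within low-dose RE, while Otp varies from 5.64 to 6.27 over all arrays.

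All 3 regulators were highest on water without TST replicate 2, the array with the most hypothalamic signal. Sim1, a transcription factor required for paraventricular and supraoptic neurons, was at 5.02 and 5.19 in water with TST, 4.85 and 4.85 in low-dose RE, 5.91 and 4.91 in high-dose RE, and 5.17 and 6.16 in water without TST. Water without TST replicate 2 and high-dose RE replicate 1, the arrays highest in the hypothalamic list, were its highest. Otp, a homeobox gene of neuroendocrine hypothalamic neurons, was at 5.78 and 5.80 in water with TST, 5.85 and 5.68 in low-dose RE, 5.64 and 5.65 in high-dose RE, and 5.78 and 6.27 in water without TST. It had the smallest spread of the 9, with a residual standard deviation of 0.184.

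Magel2, an imprinted gene of the region lost in human Prader-Willi syndrome, was at 4.66 and 4.20 in water with TST, 4.15 and 4.40 in low-dose RE, 5.22 and 4.24 in high-dose RE, and 4.92 and 5.32 in water without TST. Both arrays of water with TST lay below both of water without TST, at 4.43 ± 0.325 and 5.12 ± 0.283 (SD, n = 2 each). The difference of -0.69 (SE 0.357) had an unadjusted p = 0.0881 and an adjusted p = 0.997 by limma. Magel2 and Sim1 lay in the dimmest 25% of rows, and Otp did not.

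The first comparison, water with TST minus water without TST, asked what the stressor changed without extract. Of the 9 genes, 7 had a lower mean in water with TST and 2 a higher one, with a median difference of -0.245; of all rows, 49.2% had a lower and 50.2% a higher mean, and the median over all rows was 0.005. None of the 9 passed the study's threshold, which 2.55% of all rows did, or the adjusted test, which 0% did (567 rows had an unadjusted p under 0.05 by limma). The methods' analysis of variance, run on only the 2 groups compared, called 0 after adjustment. The groups did not overlap for 1 of the 9, Magel2, against 27.5% of all rows. Avp, at -0.19, had an interval of -2.23 to 1.85 (95%), so that a change of several fold in either direction on the deposited scale was not detectable with these arrays. Oxt was at -0.245 (95% interval -1.21 to 0.722). Kept to replicate 1 of each water group, Oxt was at -0.06, Avp at 0.34, Oxtr at 0.13, Sim1 at -0.15 and Magel2 at -0.26, a comparison added after the data were seen.

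The next comparison, low-dose RE minus water, both with TST, gave 3 genes with a higher and 6 with a lower mean, at a median of -0.155 against 0.015 over all rows, of which 51.9% had a higher and 47.5% a lower mean. None passed the study's threshold (3.54% of all rows) or the adjusted test (0% of rows, 787 at an unadjusted p under 0.05 by limma). The groups did not overlap for 2 of the 9, Oxtr and Sim1, against 25% of all rows. Oxt was at -0.495 (95% interval -1.46 to 0.472) and Avp at -0.46 (-2.50 to 1.58). Without water with TST replicate 2, Oxt was at -0.105, Avp at 0.495 and Oxtr at 0.345.

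High-dose RE minus water, both with TST, shares its water arrays with the low-dose comparison, and both share them with the TST comparison. It gave 5 genes with a higher and 4 with a lower mean, at a median of 0.25 against 0.01 over all rows, of which 51.2% had a higher and 48.1% a lower mean. None passed the study's threshold (3.17% of all rows) or the adjusted test (0% of rows, 705 at an unadjusted p under 0.05 by limma). The groups did not overlap for 2 of the 9, Avpr1b and Otp, against 30.5% of all rows. Oxt was at -0.39 (95% interval -1.36 to 0.577) and Avp at -0.905 (-2.95 to 1.14). Without water with TST replicate 2, Oxt was at 0 and Avp at 0.05.

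High-dose minus low-dose RE, which uses no water array, gave 4 genes with a higher and 5 with a lower mean, at a median of -0.12 against -0.005 over all rows, of which 48.9% had a higher and 50.3% a lower mean. Avpr1b alone passed the study's threshold, 1 of 9 where 1.91% of all rows passed, 0.946% being higher at the high dose. The groups did not overlap for 5 of the 9, Avp, Oxtr and Otp lower and Avpr1b and Sim1 higher, against 26.6% of all rows (13.7% lower and 12.9% higher). The adjusted test called 0% of rows, with 425 at an unadjusted p under 0.05 by limma. In the test for any difference among the 4 groups, the unadjusted p of the 9 genes lay between 0.164 for Avpr1b and 0.630 for Avp, and 0% of all rows passed after adjustment (404 rows, 1.82%, at an unadjusted p under 0.05 by limma).

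**Figure D3:**
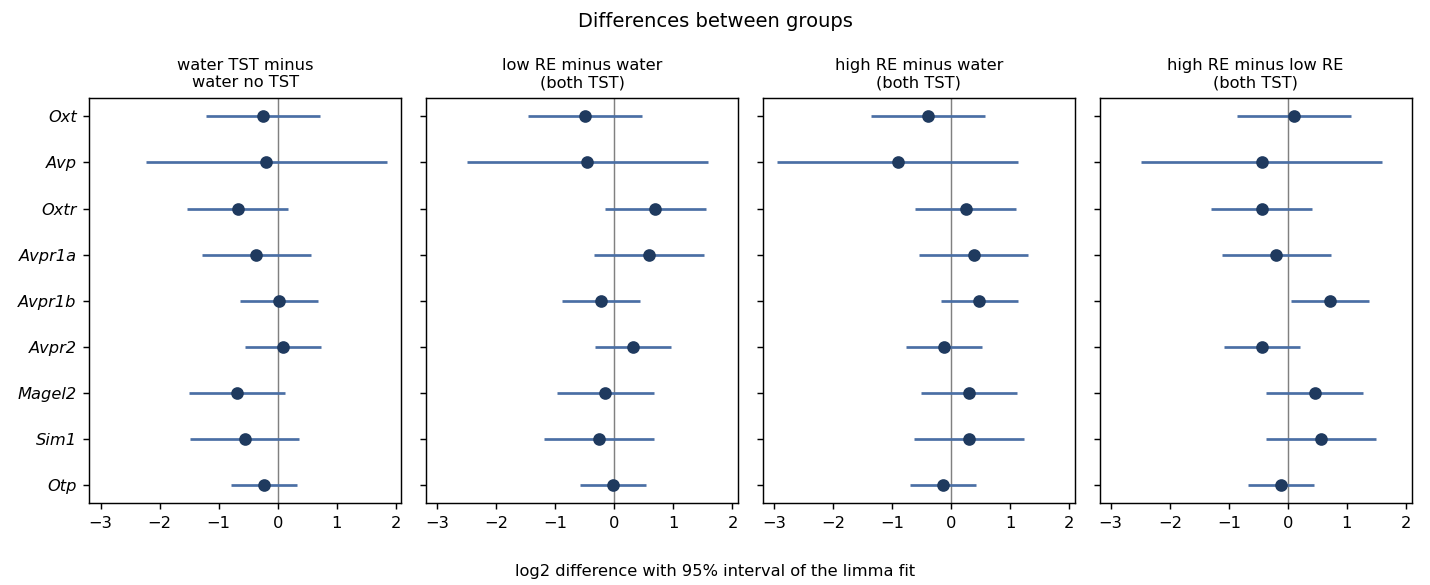
Log2 difference of each gene in the 4 comparisons, with the 95% interval of the limma fit over all 8 arrays. The interval of Avpr1b between the doses (0.0525 to 1.37) is the only one drawn that leaves out 0, before adjustment over all rows, and those of Avp are the widest.

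Genes that act on the precursors or signal from the receptors were read beside the 9. Precursor-processing genes are tied to the cutting and amidation of peptides inside granules. Of these, 5 of 5 were lower in water with TST than in water without TST (median -0.62). Against water with TST, 4 of 5 were higher with low-dose RE (0.73) and 5 of 5 with high-dose RE (0.71). In any comparison 0 of 5 passed the study's threshold. The array water with TST replicate 2 stood alone in this list, at -1.02 from its 8-array mean, where the other 7 lay between 0.0148 and 0.245. Pcsk1, a prohormone convertase, was at 9.26 and 7.31 in water with TST, 9.45 and 9.37 in low-dose RE, 9.16 and 9.68 in high-dose RE and 8.95 and 9.07 in water without TST. Its low value and those of Cpe (13.60) and Pam (12.79), the carboxypeptidase and the amidating enzyme, were all on that array, the one with the most cerebellar signal; the part of the cerebellar markers in this was not tested. Receptor-signalling genes (G proteins, phospholipases C, kinases and regulators) were lower in 9 of 14 in water with TST than without TST (median -0.173). Against water with TST, 11 of 14 were higher with either dose (0.213 low, 0.285 high). In these comparisons 0 passed the threshold. Of all rows, 49.2% had a lower mean in the TST comparison, and 51.9% and 51.2% a higher one with low-dose and high-dose RE. Water with TST replicate 2, used in each of these comparisons, had the only negative mean of this list, at -0.516. Means of the remaining arrays ran from 0.0087 to 0.104. The part of that array's tissue content in these counts was not tested. Genes of release, Cadps, Cadps2 and Syt4, were higher in 3 of 3 in water with TST than in water without TST (median 0.23), none past the threshold, and Cadps2 reached 13.99 on water with TST replicate 2 against 11.61 to 12.48 on the other 7 arrays.

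Genes known from the same hypothalamic nuclei were mostly highest on 1 array. Of 10 measured, 9 peaked on water without TST replicate 2, as were 6 of the 9 oxytocin and vasopressin genes (Oxt, Avp, Oxtr, Magel2, Sim1 and Otp), where 10.3% of all rows were highest. Trh, the thyrotropin-releasing hormone gene, was at 6.52 and 6.34 in water with TST, 6.12 and 6.38 in low-dose RE, 6.48 and 6.35 in high-dose RE, and 5.82 and 8.57 in water without TST. Like Avp, it had its lowest and its highest value in the same group. In water with TST, 8 of the 10 had a lower mean than in water without TST (median -0.658), and Crh (-0.73, SE 0.285) and Cartpt (-1.05, SE 0.390), the genes of corticotropin-releasing hormone and of a satiety peptide, passed the study's threshold. With low-dose RE 5 were higher and 5 lower than in water with TST (median 0.035), and Nos1, the neuronal nitric oxide synthase gene, passed it at -1.36 (SE 0.517). With high-dose RE 6 were higher and 4 lower (median 0.09), and Cartpt (1.24, SE 0.390) and Nos1 (-1.24, SE 0.517) passed it. Nos1 was at 11.38 on water with TST replicate 2 and between 8.85 and 9.72 on the other 7 arrays. Between the doses 7 were higher and 3 lower at the high dose (median 0.145), with Cartpt past the threshold at 0.995 (SE 0.390). None of these passed the adjusted test. The transcription factors and imprinted genes of this lineage, 8 measured, were lower in 6 in water with TST than in water without TST (median -0.233), split 4 and 4 with low-dose RE, and lower in 4 and higher in 3 with high-dose RE, none past the threshold; Arnt2, the partner of Sim1, was at 11.16 on water with TST replicate 2 and between 12.91 and 13.47 on the other 7. In the hypothalamic list 1 of 22 genes passed the threshold between water with and without TST, against 2.55% of all rows. It was Six3, at -0.955 (SE 0.373). With low-dose RE 1 of 22 passed, Rax at -0.59 (SE 0.212), against 3.54% of all rows. With high-dose RE 1 of 22 passed, Six3 at 0.905 (SE 0.373), against 3.17% of all rows. Six3 was at 7.07 and 6.20 in water with TST and at 7.14 and 8.04 in water without TST. It was at 7.10 and 7.11 in low-dose RE and at 7.48 and 7.60 in high-dose RE. Both differences thus use its low value on water with TST replicate 2. Between the doses 0 of 22 passed.

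The level of each gene was set against the hypothalamic marker mean over the 8 arrays, which come from 4 groups. Sim1 had the highest Pearson r, 0.82 (exact permutation p = 0.0198, two-sided, adjusted p = 0.148 over the 9 genes), with a Spearman rho of 0.53 (exact permutation p = 0.185, adjusted 0.415). Oxt had r = 0.75 (exact permutation p = 0.0379, adjusted p = 0.148) and rho = 0.60 (exact permutation p = 0.132, adjusted 0.397). Avp had r = 0.70 (exact permutation p = 0.0555, adjusted p = 0.148) and rho = 0.60 (exact permutation p = 0.132, adjusted 0.397). Without the 2 arrays farthest from the median marker level, water without TST replicate 2 and high-dose RE replicate 1, r was -0.40 for Sim1, 0.16 for Oxt and 0.36 for Avp, so these relations rest on those arrays. Avpr1a was at r = 0.60, and still at 0.70 without those arrays, with rho = 0.71 (exact permutation p of r = 0.112, adjusted 0.156, and of rho = 0.0576, adjusted 0.397). For Oxtr r was 0.67, and 0.41 without those arrays (rho = 0.36). Without them the sign of r turned for Magel2 (0.65 over 8 arrays and -0.38 over 6, rho = 0.48), for Otp (0.64 and -0.63, rho = -0.07) and for Avpr2 (-0.37 and 0.81, rho = -0.43). For Avpr1b r was 0.14, and 0.33 without them (rho = 0.31). The exact permutation p of these 5 genes lay between 0.0673 for Magel2 and 0.715 for Avpr1b for r, and between 0.243 for Magel2 and 0.872 for Otp for rho. None of the 9 passed after adjustment. Each group held 2 arrays, too few for a value within groups. Water with TST replicate 2 had Avp at 7.88 and Oxt at 7.27 while its hypothalamic marker mean was -0.0822. There, 6 of the 22 markers (27.3%) were highest, near the 23% of all rows. On that array the pituitary hormone list was at its highest, 0.635 above its 8-array mean, with Gh at 7.41 and Cga at 6.72, against 5.54 to 6.47 and 4.28 to 5.37 on the other 7 arrays; the other 4 hormone genes were not highest there, and the part of pituitary tissue was not tested. Within the fit that takes the hypothalamic marker mean as a covariate, the difference between water with and without TST was 0.166 for Oxt and 0.707 for Avp, and no gene of the 9 passed the adjusted test in any of the 4 comparisons.

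**Figure D4:**
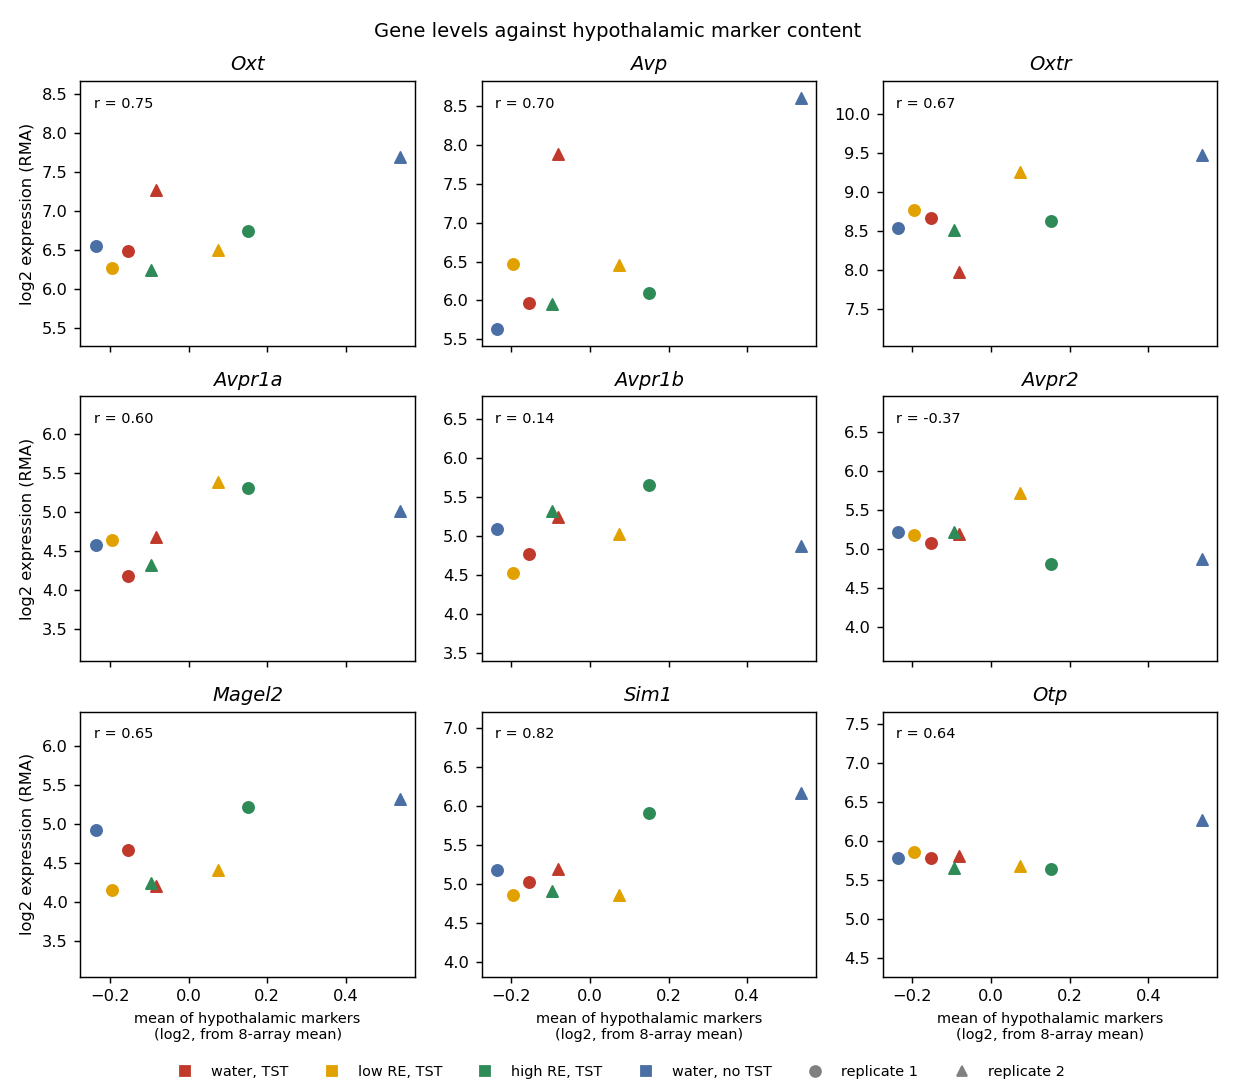
Log2 expression of each gene against the mean of 22 hypothalamic markers (log2 units from the 8-array mean), 1 point per array, coloured by group, with Pearson r over the 8 arrays. Water without TST replicate 2, the blue triangle at 0.537, is the highest point for Sim1 (r = 0.82) and Otp (r = 0.64), and the red triangle of water with TST replicate 2 is second only to it for Avp.

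Among 9748 other genes above the median level, those with the pattern most like Avp over the 8 arrays were Pigu, Vasn, Slc5a7, Bsg and Reep6, with Pearson r from 0.926 for Reep6 to 0.980 for Pigu. Slc5a7, the choline transporter gene of cholinergic neurons, was at 6.97 and 8.09 in water with TST, 7.69 and 7.41 in low-dose RE, 6.91 and 7.43 in high-dose RE, and 7.08 and 8.76 in water without TST. Most like Oxt were Pnrc2, Ppan, Sncg, Pkia and Syt10, with r from 0.932 for Syt10 to 0.968 for Pnrc2, and Sncg was at 8.98 and 8.80 on the 2 arrays where Oxt was highest and at 7.93 or less on the other 6. Most like Oxtr were Zdbf2, Npy2r, Vps35, Cyb5a and Ccdc88c, with r from 0.936 for Ccdc88c to 0.972 for Zdbf2. The r values are the highest of many and describe these arrays only. Npy2r, a neuropeptide Y receptor gene, was at 8.02 and 6.87 in water with TST, 8.35 and 8.90 in low-dose RE, 8.45 and 7.87 in high-dose RE and 7.99 and 8.97 in water without TST. Like Oxtr, it was lowest on water with TST replicate 2.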

How the data were processed

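Per the series' design text, the authors hybridised duplicate RNA samples of each group to Clariom S arrays and normalized them by RMA in Transcriptome Analysis Console 4.0.1. The authors deposited log2 values, taken as they stand; no source used here gives a genome build for them. Of 22206 rows, 19572 had 1 gene symbol and 0 several, and 2634 were unnamed here. Gene IDs of all 19572 were found in RefSeq. A gene's row is that with the highest mean. limma 3.58.1 in R 4.3.3 fitted group means to all 8 arrays (4 residual degrees of freedom), with two-sided tests adjusted by Benjamini-Hochberg across the table, and was tested on simulated data. Groups and replicate numbers come from the sample titles. Correlations used exact permutation in Python 3.11.15. The 9 genes and all lists were chosen with earlier results of these data known. Genes named from a list are those past the study's threshold, the largest differences or hypothalamic markers; those like Oxt, Avp and Oxtr are the 5 highest in r, leaving out predicted loci, chemosensory receptors and small RNAs. Pituitary genes, Pomc, Irs4, Cadps2, Arnt2, Trh, Calcr, Tac2, Six3, Nkx2-1, Nkx2-4, Prox1, Neurod2, Slc5a7, Sncg and Npy2r were given values after these were seen. Listed genes without a named row were not analysed here. The array values carry no depth. Alternatives were a replicate block, other variance priors, filters, normalization and fits, marker means as covariates and each array left out.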

Additional observations from a re-analysis of the deposited data

Results flagged for a closer look

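Avpr1b passed the study's threshold between the RE doses but not the adjusted test, at 0.71 for high minus low dose (SE 0.287, unadjusted p = 0.0374 and adjusted p = 1.00 by limma, higher in 2 of 2 high-dose arrays than in both low-dose arrays). In several refits described above Avpr1b was no longer past that threshold. It was picked out because the effects of the doses against the same water arrays then differ, at 0.48 for the high and -0.23 for the low dose. The row lies in the dimmest 25% of the table.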

How the results depend on the processing

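Under the alternatives, differences of the 9 genes did not change sign in 554 refitted values and changed sign in 38, and none of these passed the adjusted test. Many of the 554 could not change, so these counts do not measure stability. The difference stays the same by design under the replicate block, other variance priors, the dim-row filter and fits of only the groups compared. It also stays the same when the array left out lies outside the comparison. With the hypothalamic marker mean as a covariate, Oxt (0.166) and Avp (0.707) changed sign between water with and without TST and Oxt between the doses (-0.0306). With the cerebellar mean, Avpr1b did so for TST (-0.0275) and the low dose (0.0342) and Oxtr for the high dose (-0.186). With only replicate 1 of each water group, chosen after seeing the data, the TST difference changed sign for Avp (0.34), Oxtr (0.13), Avpr1b (-0.33) and Avpr2 (-0.15), the low-dose difference for Avp (0.495) and Avpr1b (0.01) and the high-dose difference for Avp (0.05) and Oxtr (-0.095). The cause was not tested.

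With each array left out in turn, TST differences ran from -0.82 to 0.33 for Oxt, -1.675 to 1.295 for Avp, -0.22 to 0.26 for Avpr1b, -0.09 to 0.26 for Avpr2 and -0.48 to 0.01 for Otp. Low-dose differences ran from -1.415 to 0.495 for Avp, -0.48 to 0.02 for Avpr1b, -0.385 to 0.075 for Magel2 and -0.11 to 0.06 for Otp. High-dose differences ran from -1.86 to 0.05 for Avp, -0.095 to 0.595 for Oxtr, -0.11 to 0.88 for Avpr1a, -0.33 to 0.08 for Avpr2, -0.19 to 0.79 for Magel2 and -0.195 to 0.805 for Sim1. Dose differences ran from -0.145 to 0.355 for Oxt, -0.695 to 0.295 for Avpr1a and -0.035 to 0.945 for Magel2. The relation to hypothalamic markers ran from r = -0.757 to 0.792 for Otp, where the lowest was without water without TST replicate 2, and from -0.0639 to 0.651 for Avpr1b, which was at -0.0193 after quantile normalization.

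Over all rows, leaving out each array gave 0 to 512 (TST), 0 to 958 (low dose), 0 to 928 (high dose) and 0 to 8 (between doses) rows past the adjusted test, 0 to 356 for any difference among groups, and 364 to 3707, 496 to 3767, 354 to 3785 and 247 to 1183 rows past the study's threshold. Without water with TST replicate 1, its group rests on replicate 2 alone, and the highest counts of the comparisons with water arose there. Rows past the study's threshold numbered 352 (TST) and 267 (low dose) with only the groups compared. They numbered 487 (low dose) by the methods' analysis of variance, also with only the groups compared. Without the dimmest rows, which leaves out 5 of the 9 genes, they numbered 249 (between doses), and with the cerebellar covariate 1078 (TST). Keeping only replicate 1 of each water group gave 962 for TST, with 3 rows past the adjusted test, and 3 for any difference. With the replicate number as a block, the counts past the study's threshold were 497 (TST), 702 (low dose), 632 (high dose) and 409 (between doses), and no call of the 9 genes changed. The labels do not say that a number pairs samples. Deviations of same-numbered arrays correlated between -0.293 and 0.169. These values also carry the differing tissue content of the arrays, so they cannot decide whether same-numbered samples were paired. Each gene had 1 row, so no other row could be tried. With 2 arrays a group, dim rows limit what can be seen.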

Other observations

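Of the 6 pituitary hormone genes, 6 lay below the median of all rows and 4 in the dimmest 25%. Pomc, the precursor gene of corticotropin and of hypothalamic melanocortin peptides, was at 6.06 and 8.05 in water with TST, 6.08 and 6.67 in low-dose RE, 6.33 and 6.29 in high-dose RE and 6.62 and 6.65 in water without TST. It was highest on water with TST replicate 2, 1 of the 2 arrays on which Oxt and Avp were highest. Irs4, an insulin receptor substrate gene of the hypothalamus, was at 5.98 and 6.95 in water with TST, 5.89 and 6.96 in low-dose RE, 6.84 and 6.37 in high-dose RE and 5.84 and 8.07 in water without TST. Its highest array was the highest for Avp too, and its lowest, water without TST replicate 1, was the lowest for Avp. Calcr, the calcitonin receptor gene, was highest on the same 2 arrays as Oxt and Avp, at 6.30 on water with TST replicate 2 and 6.80 on water without TST replicate 2, and lay between 5.35 and 5.93 on the other 6. Pomc, Irs4 and Calcr were picked from the 22 hypothalamic markers for this likeness, and others went the other way. Tac2 (5.43), Six3 (6.20), Nkx2-1 (4.10) and Nkx2-4 (5.39) were at their lowest on water with TST replicate 2. The mean of the 22 markers there was -0.0822.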
